A study of Caenorhabditis elegans with 4 samples.

Results

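The bZIP transcription factor gene zip-2 (K02F3.4), the genes of its C/EBP-type partners cebp-1 (D1005.3) and cebp-2 (C48E7.11), and the infection response genes irg-1 (C07G3.2) and irg-2 (C49G7.5) were followed in aged Caenorhabditis elegans of low and high physical ability. They were chosen by name, with every probe of each gene on the array, and make up 5 of 20480 genes and 10 of 35577 probes with a gene. Total RNA of whole worms was hybridized to 4 single-colour Agilent arrays, 2 for low MV and 2 for high MV worms. All worms were of the wild-type strain N2, with no transgene, mutation or drug named in the labels, were grown at 20 °C, and were measured on day 7 to 8 of adulthood on a plate without bacteria. MV is the maximum velocity of a worm, and worms with an MV under 0.22 mm/sec made up the low MV group.

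ZIP-2 is a basic leucine zipper protein that switches on genes such as irg-1 when worms meet pathogenic Pseudomonas aeruginosa or when core processes such as translation or mitochondrial function fail, which is known as surveillance immunity and acts in the intestine in particular. CEBP-2, the worm ortholog of mammalian CEBPG, acts together with ZIP-2 in that response. CEBP-1 is a related factor, known both from surveillance immunity and from axon regeneration, where it lies downstream of the MAP kinase kinase kinase DLK-1.

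Of the 5 genes, zip-2, irg-1, irg-2 and cebp-1 rose in low MV worms and cebp-2 did not pass the test. The rises were 3.80-fold for irg-2, 3.53-fold for zip-2, 3.23-fold for irg-1 and 1.96-fold for cebp-1. Calls required a p under 0.05 after Benjamini-Hochberg adjustment together with a log2 difference beyond 0.58 (1.5-fold) in either direction, in a limma fit that moderates the spread of each gene by that of the others. All 5 genes entered the test, but cebp-1 passed the filter on dim probes only through low MV worms, where it is high, so the count of 4 calls among the 5 genes is a description and no support. By the same rule, 21.6% of the 12515 genes tested were called higher. Another 17.1% of all genes were called lower, so that 38.6% had a call in one direction or the other. Of all genes, 42% had both low MV samples above both high MV samples, as these 4 had. The study took zip-2 up from among genes that were higher in low MV worms on these same arrays, so the rise of zip-2 is not independent evidence of its direction.

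Between 84.6% and 87.7% of the non-control spots of an array were well above background, and none was saturated. Values are log2 signals after quantile normalization between the 4 arrays, and a probe counts as present above 6.89, where 2 fitted Gaussian densities meet. Both low MV arrays lay on 1 slide with a scan of its own and both high MV arrays on another, so slide, scan and physical ability cannot be told apart. The labels do not say that the arrays of a group came from separate cultures, so the p-values measure the spread between these samples, which may be technical. With 2 arrays a group, the smallest two-sided p that permutation allows is 0.333. In whole-worm RNA, fewer cells of a type and less RNA per cell cannot be told apart.

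zip-2, the transcription factor itself, was measured by 1 probe. Its log2 signal was 13.34 and 13.53 in the 2 high MV samples and 15.18 and 15.33 in the 2 low MV samples. Both low MV samples lay well above both high MV samples, and the samples of a group differed little from each other. The group means were 13.44 ± 0.14 in high MV and 15.26 ± 0.10 in low MV worms (SD, n = 2 each). The log2 fold change was 1.82 with a standard error of 0.12, a 95% interval of 1.53 to 2.11 and a limma adjusted p of 0.000658. Among all genes tested, zip-2 ranked 179 by its rise, above 98.6% of them. The deposited intensities, before any scaling, were 11110 and 14992 in high MV and 35089 and 35136 in low MV worms, against a local background of 22 to 25. On that scale the log2 difference was 1.44, smaller than after quantile normalization, while the median over all genes was -0.15. Hence zip-2 stood 1.59 above the median gene without scaling and 1.81 above it with quantile normalization.

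**Figure D1:**
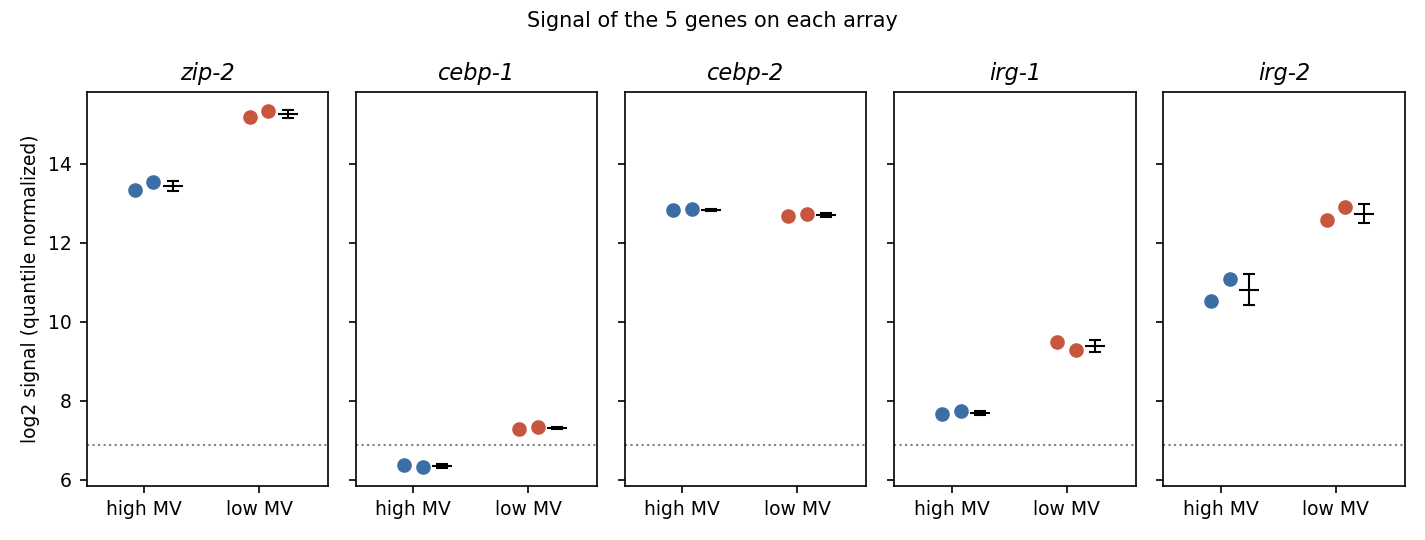
The log2 signal after quantile normalization of zip-2, cebp-1, cebp-2, irg-1 and irg-2 is plotted per array, with high MV samples in blue, low MV samples in red, and the mean with its SD (n = 2) in black. The dotted line is the present threshold of 6.89. In zip-2, cebp-1, irg-1 and irg-2 both low MV samples lie above both high MV samples, in cebp-2 they lie slightly below, and heights are not comparable between panels because each gene is read by its own probe.

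The partner genes differed from each other. cebp-1, the C/EBP factor of axon regeneration and stress surveillance, was read by 1 dim probe with log2 signals of 6.38 and 6.31 in high MV and 7.29 and 7.33 in low MV samples. Both high MV values lay under the present threshold and both low MV values above it, so cebp-1 passed the filter only through low MV worms. On every array the probe was nonetheless well above background. Its deposited intensities were 68.3 and 84 in high MV and 178 and 157.5 in low MV worms. It rose by 0.97 on the log2 scale, with a standard error of 0.09, a 95% interval of 0.74 to 1.2 and a limma adjusted p of 0.00121. The size of this rise depended on the background correction, and with normexp it was 0.24 (limma adjusted p = 0.0229), under the fold required for a call. When arrays were scaled to the brightest probe of the actin gene act-3, it was 0.31 (limma adjusted p = 0.0916).

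cebp-2, which encodes the partner of ZIP-2 in the response to P. aeruginosa, gave log2 signals of 12.82 and 12.85 in high MV and 12.67 and 12.73 in low MV samples from its 1 probe. The low MV samples were slightly below the high MV samples with no overlap, which was also so for 41.5% of all genes tested. The log2 fold change was -0.14 with a standard error of 0.09, and the 95% interval of -0.37 to 0.09 leaves no room for a 1.5-fold rise under this normalization. The limma adjusted p was 0.244. Without scaling the log2 difference of cebp-2 was -0.52. Scaling to the brightest act-3 probe gave -0.79 (limma adjusted p = 0.00269), past the threshold for a fall. Scaling to the mean of the act-3 probes gave -0.54 (limma adjusted p = 0.0359), under the fold required for a call. With the brightest act-3 probe the median of all genes was also at -0.65, and cebp-2 lay 0.14 below it. The estimates of cebp-1 and cebp-2 had intervals that did not overlap, and the difference between these genes was not tested.

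Of the target genes, irg-1 is the reporter most used for ZIP-2 activity and was covered by 6 probes. The brightest of these, which stands for the gene, gave log2 signals of 7.66 and 7.73 in high MV and 9.49 and 9.28 in low MV samples. The groups were far apart, and the 2 low MV samples differed more from each other than the 2 high MV samples did. The means were 7.69 ± 0.05 in high MV and 9.38 ± 0.14 in low MV worms (SD, n = 2 each). irg-1 rose by 1.69 on the log2 scale, with a standard error of 0.11, a 95% interval of 1.41 to 1.97 and a limma adjusted p of 0.000684. irg-1 ranked 254 by its rise among all genes tested. The deposited intensities of this probe were 172.9 and 225.2 in high MV and 777.8 and 588.8 in low MV worms.

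The other 5 probes of irg-1 moved in the same direction by a similar amount. Their log2 fold changes were 1.52, 1.55, 1.40, 1.62 and 1.68, so that the folds over all 6 probes ran from 2.63 to 3.23. In a separate limma fit over all 21658 present probes, the adjusted p of the 6 probes ranged from 0.000654 to 0.00106. All 6 were called higher, beside 20.6% of all present probes. With normexp the 6 log2 fold changes were 0.41 to 0.81 and only the brightest probe kept its call, and by the adjusted gene-by-gene test of the study's methods 3 of the 6 kept it. The 95% intervals of the 6 probes all overlapped, with lower bounds from 1.1 to 1.41 and upper bounds from 1.69 to 2.06. The range of 0.29 between the smallest and the largest log2 fold change compares with a median range of 0.39 among the 564 genes with 6 or more present probes. The probes of irg-1 thus differed from each other about as much as the probes of other genes did, with the range of irg-1 at percentile 29.6 among those genes. These probes read the same RNA and are not replicates of the condition. The 5 dimmer probes had log2 signals of 5.99 to 6.48 in high MV samples, under the present threshold, and 7.63 to 8.05 in low MV samples. They too passed the filter only through low MV worms, where they are high, so their calls and adjusted p are a description and no support. Each of these 5 probes was well above background on all 4 arrays, with deposited intensities from 51.4 to 296.

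**Figure D2:**
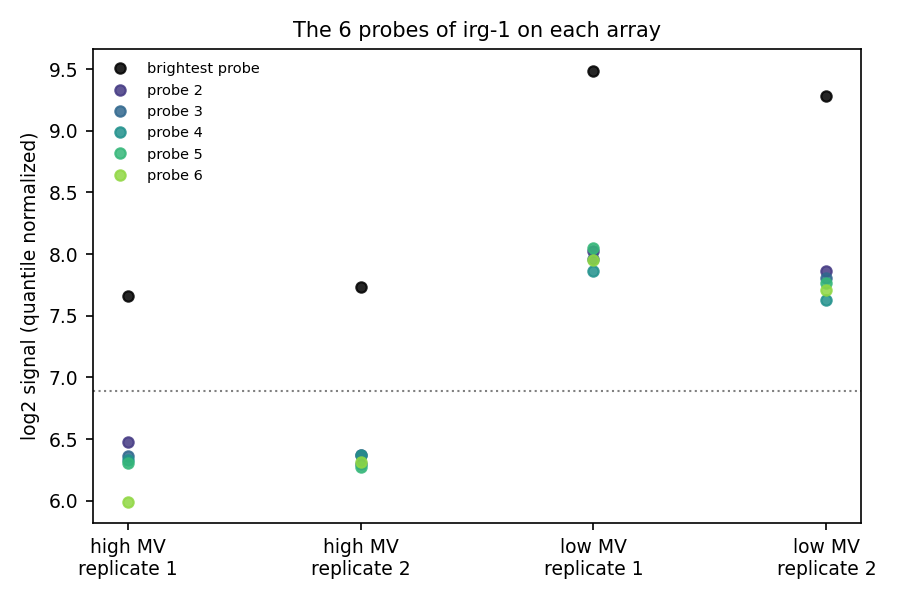
The log2 signal after quantile normalization of each of the 6 irg-1 probes is plotted on each array, with 1 colour per probe and the present threshold of 6.89 as a dotted line. The brightest probe is above the threshold on all 4 arrays, and the other 5 cross it only in the low MV samples, where every probe is higher than in either high MV sample.

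irg-2, a second infection response gene, was read by 1 probe and gave the largest rise of the 5 genes with quantile normalization. With scaling to the 75th percentile, with spike-in scaling, without scaling and without low MV replicate 2, irg-1 gave the largest. With normexp and without high MV replicate 1, zip-2 gave the largest. The log2 signal of irg-2 was 10.53 and 11.09 in high MV and 12.58 and 12.90 in low MV samples. The groups did not overlap, although the 2 high MV samples differed from each other more than for any other of the 5 genes. The means were 10.81 ± 0.40 in high MV and 12.74 ± 0.23 in low MV worms (SD, n = 2 each), against a median SD over all genes of 0.104 in high MV and 0.065 in low MV samples. Its log2 fold change was 1.93 with a standard error of 0.22, a 95% interval of 1.37 to 2.48 and a limma adjusted p of 0.00179. The deposited intensities were 1400.4 and 2503.7 in high MV and 5628 and 6397.4 in low MV worms. irg-2 ranked 133 by its rise. The intervals of zip-2, irg-1 and irg-2 overlapped each other, and differences between their rises were not tested.

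**Figure D3:**
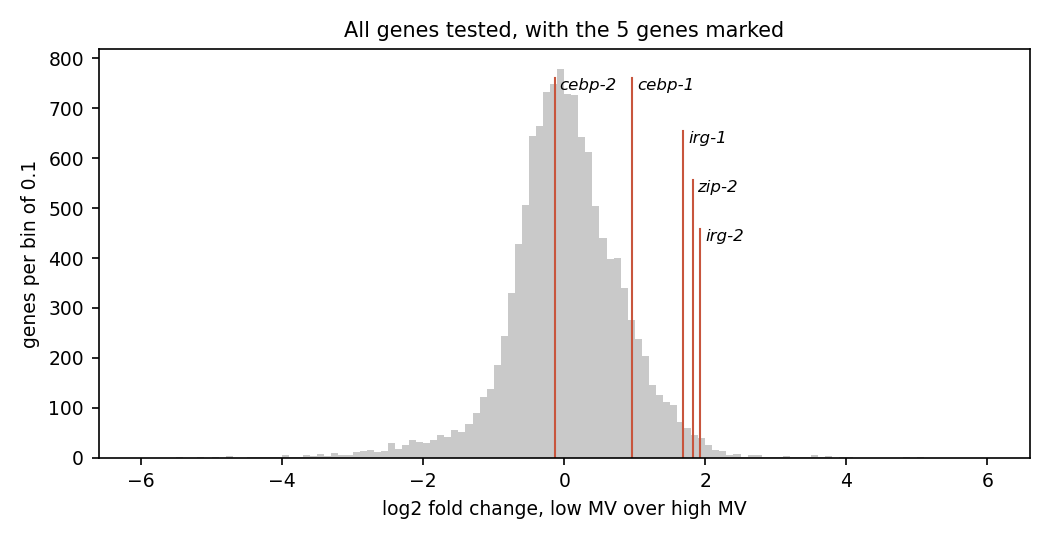
The histogram shows the log2 fold change of low MV over high MV for all 12515 genes tested in bins of 0.1, and red lines mark cebp-2 at -0.14, cebp-1 at 0.97, irg-1 at 1.69, zip-2 at 1.82 and irg-2 at 1.93. The median of all genes is 0.01, cebp-2 lies near it, and zip-2, irg-1 and irg-2 lie in the right tail.

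Leaving out each array in turn kept the calls of zip-2, cebp-1, irg-1 and irg-2 and left cebp-2 without one. The log2 fold change of zip-2 then lay between 1.72 and 1.91, that of cebp-1 between 0.94 and 1.00, that of irg-1 between 1.59 and 1.79, and that of irg-2 between 1.65 and 2.20. Over 15 other settings of scaling, background, filter and test, zip-2 and irg-1 stayed past the threshold in all 15, with zip-2 between 1.16 and 1.82 and irg-1 between 0.81 and 1.91. irg-2 stayed past it in 14 settings, all but the gene-by-gene test of the study's methods after adjustment, and cebp-1 in 11.

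**Figure D4:**
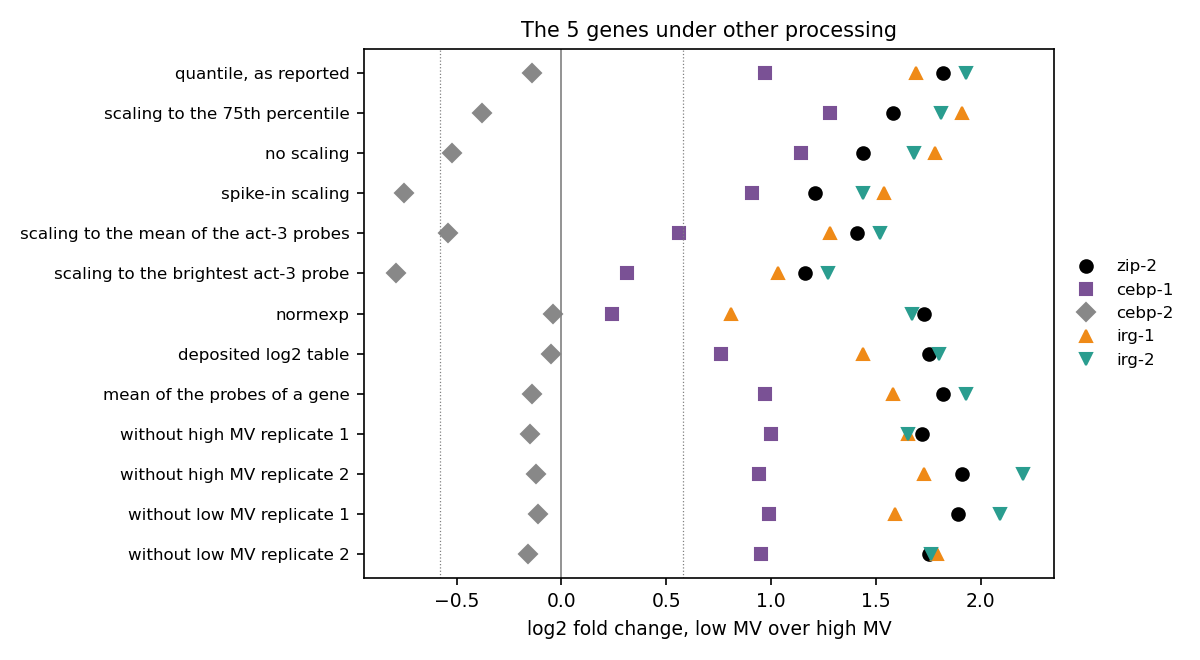
The log2 fold change of low MV over high MV is plotted for zip-2, cebp-1, cebp-2, irg-1 and irg-2 under quantile normalization and 12 other settings, 1 row each, with dotted lines at the 1.5-fold threshold. The symbols of zip-2, irg-1 and irg-2 stay right of the threshold in every row, cebp-1 falls to 0.24 with normexp, and cebp-2 stays left of 0 throughout.

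The irg name covers 8 genes on the array, and irg-1 and irg-2 were the only ones of them that rose. Of the 6 others, irg-3, irg-4, irg-5, irg-6 and irg-7 fell and irg-8 did not pass the test. Of all genes tested, 21.6% were called higher and 17.1% lower. The median log2 fold change was -1.76 over the 8 irg genes, against 0.01 over all genes tested. irg-4 and irg-5 are known as genes whose expression needs the p38 MAP kinase PMK-1, a pathway that runs in parallel to ZIP-2. irg-4 gave log2 signals of 12.14 and 13.46 in high MV and 8.93 and 8.70 in low MV samples, and fell by 3.98 with a standard error of 0.42 (limma adjusted p = 0.00156). irg-5 gave 11.19 and 12.81 in high MV and 9.69 and 10.03 in low MV samples, and fell by 2.14 with a standard error of 0.52 (limma adjusted p = 0.0176). For both genes the high MV samples were far apart, and the log2 fold change of irg-5 was -2.95 without high MV replicate 1 and -1.33 without replicate 2. The call of irg-5 was lost with no filter on dim probes (limma adjusted p = 0.0554). By the gene-by-gene test of the study's methods irg-5 was not called, and irg-4 was called only before adjustment.

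irg-6 had log2 signals of 10.963 and 11.004 in high MV and 7.47 and 7.94 in low MV samples, a fall of 3.28 (limma adjusted p = 0.000561). A second probe of irg-6 fell by 2.69, but it passed the filter on dim probes only through high MV worms, where it is high. This second probe is therefore a description and no support. The remaining probe of irg-6 was not present. irg-3 had 11.14 and 11.24 in high MV and 8.47 and 8.68 in low MV samples, a log2 fold change of -2.62 (limma adjusted p = 5e-04). These falls, of irg-3 and irg-6, passed the threshold in all 15 settings. irg-7, which encodes a protein needed for the induction of immune genes, had 12.52 and 12.49 in high MV and 11.55 and 10.71 in low MV samples, a fall of 1.37 (limma adjusted p = 0.00931). Without high MV replicate 1 or replicate 2 its adjusted p was 0.05 and 0.0511, and without low MV replicate 2 the fall was 0.95. Neither before nor after adjustment was irg-7 called by the gene-by-gene test of the study's methods. irg-8 differed by -0.77 (limma adjusted p = 0.0587). It passed the threshold for a fall with every other scaling and background tried, and without low MV replicate 1, where it was at -1.13.

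**Figure D5:**
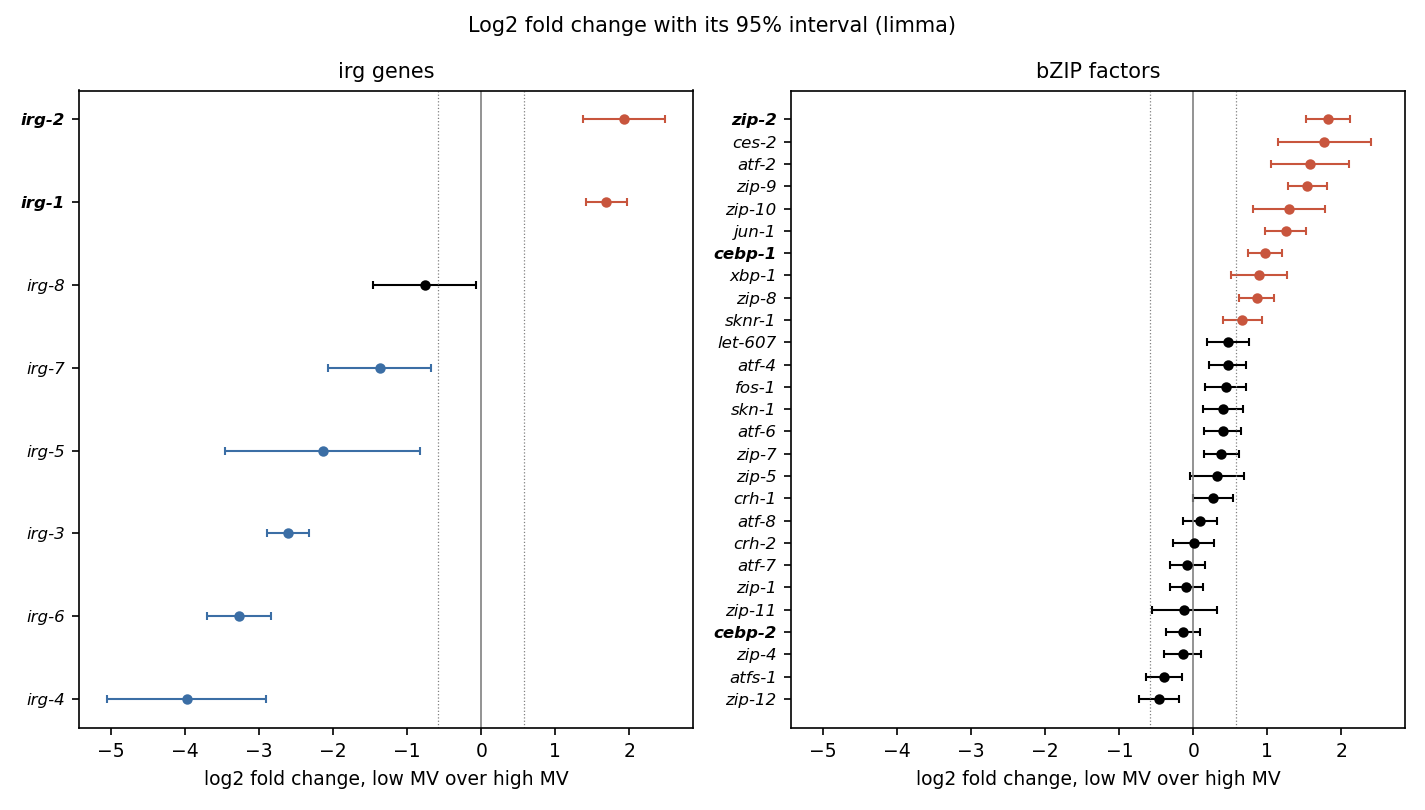
Points give the log2 fold change of low MV over high MV and bars the 95% interval from limma (2 arrays a group), for the 8 irg genes on the left and for zip-2, cebp-1, cebp-2 and the 24 other bZIP factors tested on the right. Red marks genes called higher, blue genes called lower, black genes not called, bold names the genes followed here, and dotted lines the 1.5-fold threshold. irg-1 and irg-2 lie right of 0 and the other 6 irg genes left of it.

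zip-2 and cebp-1 belong to a larger family of bZIP factors, of which 27 others were listed and 24 tested. Of these, 8 rose and 0 fell, with a median log2 fold change of 0.40. The largest rises were those of ces-2, a factor known from the control of programmed cell death in neurons, at 1.77 (standard error 0.25, limma adjusted p = 0.00316), atf-2 at 1.58 (limma adjusted p = 0.00253) and zip-9 at 1.54 (limma adjusted p = 0.000707). These 8 of 24 stand beside the 21.6% of all genes called higher. With quantile normalization zip-2 had the highest log2 fold change of the bZIP factors tested, and its interval overlapped those of ces-2, atf-2 and zip-9. atf-2 was above zip-2 with scaling to the 75th percentile (1.78 against 1.58), with spike-in scaling (1.41 against 1.21) and without scaling (1.65 against 1.44). The family median lay 0.38 to 0.40 above the median of all genes under the scalings and background correction tried. Scalings that shift all genes of an array by the same amount cannot change this distance, so it is no sign of stability. The sign of the family median did not hold. It was -0.26 after scaling to the brightest act-3 probe and -0.01 after scaling to the mean of the act-3 probes. The counts changed with it, to 5 rises and 7 falls in the former, 5 rises and 2 falls in the latter, 5 rises and 1 fall without scaling, and 4 rises and 0 falls with spike-in scaling. zip-3 and zip-6 had no present probe.

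Around cebp-1, 10 genes of the DLK-1 and KGB-1 kinase pathways were tested, and 6 rose and 0 fell, with a median log2 fold change of 0.68, where 21.6% of all genes were called higher and 17.1% lower. nipi-3, which encodes a Tribbles-type pseudokinase known to repress cebp-1, gave log2 signals of 11.78 and 12.01 in high MV and 13.51 and 13.66 in low MV samples. Its log2 fold change was 1.69 (limma adjusted p = 0.000787), and each of its 5 present probes was called higher. mak-2, a kinase downstream of the p38-type kinase PMK-3 in axon regeneration, rose by 1.24 (limma adjusted p = 0.000795). dlk-1 itself rose by 0.86 (limma adjusted p = 0.00232). rpm-1, which encodes the ubiquitin ligase that restrains DLK-1, and svh-1 had no present probe. The count of 6 rises fell to 1 with spike-in scaling and to 2 with scaling to the mean of the act-3 probes. With scaling to the brightest act-3 probe it fell to 1, with 2 falls. The list median lay 0.55 to 0.73 above the median of all genes, a distance that a shift of all genes of an array cannot change.

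In the p38 pathway, which acts beside ZIP-2 in intestinal immunity, 5 of 7 genes rose and 0 fell, with a median of 0.79, beside the same 21.6% and 17.1% of all genes. tir-1, the SARM1 ortholog that starts the pathway, rose by 1.89 (limma adjusted p = 0.00135), vhp-1, a phosphatase that switches the kinases off, by 1.76 (limma adjusted p = 0.000811) and nsy-1, its MAP kinase kinase kinase, by 0.95 (limma adjusted p = 0.00246). With scaling to the 75th percentile and without scaling, 4 of the 7 were called higher. With spike-in scaling and with either scaling to act-3, 2 of the 7 were called higher, and with the brightest act-3 probe 1 was called lower. With quantile normalization, 5 of the 7 genes, among them the phosphatase gene vhp-1, were called higher. The PMK-1-dependent genes irg-4 and irg-5 were called lower in the same samples.

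Among 13 mitochondrial stress factors, 2 rose and 1 fell, with a median of -0.03, against 21.6% and 17.1% of all genes. There were 0 rises and 7 falls with scaling to the brightest act-3 probe, 1 rise and 3 falls with scaling to the mean of the act-3 probes, and 0 rises and 1 fall with spike-in scaling. Without low MV replicate 2 or without high MV replicate 1 there were 2 rises and 0 falls. jmjd-3.1 and jmjd-1.2, histone demethylases of the mitochondrial stress response, rose by 1.06 (limma adjusted p = 0.00198) and 0.75 (limma adjusted p = 0.00343). jmjd-3.1 lost its call with spike-in scaling (0.79) and with the brightest act-3 probe (0.40). jmjd-1.2 lost it with scaling to the 75th percentile (0.49), with spike-in scaling (0.12), without scaling (0.36), with either scaling to act-3 (0.09 and 0.34) and with the mean of its probes (0.54). By the adjusted gene-by-gene test of the study's methods neither was called. hsp-60, the mitochondrial chaperonin, fell by 0.60 (limma adjusted p = 0.0324), and this call was lost without low MV replicate 2, where the fall was 0.53, and without high MV replicate 1, where it was 0.36. It was also lost with no filter on dim probes, with a filter on spots well above background and by the gene-by-gene test of the study's methods. atfs-1, the bZIP factor of the mitochondrial unfolded protein response, gave 11.08 and 11.15 in high MV and 10.66 and 10.77 in low MV samples. The difference of -0.40 (limma adjusted p = 0.0178) was under the fold required for a call, and the low MV samples lay below the high MV samples. atfs-1 was called lower with scaling to the brightest act-3 probe (-1.06, limma adjusted p = 0.000883) and to the mean of the act-3 probes (-0.81, limma adjusted p = 0.0049). gas-1 and mev-1, subunits of respiratory complexes, differed by 0.36 (limma adjusted p = 0.0464) and 0.29 (limma adjusted p = 0.0621), with the sign turned under spike-in scaling, without scaling and under scaling to act-3.

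act-3, the reference gene of the study's qRT-PCR, bears on how zip-2, irg-1 and irg-2 would read relative to it. On these arrays its brightest probe gave 15.87 and 15.67 in high MV and 16.43 and 16.44 in low MV samples, a rise of 0.66 (limma adjusted p = 0.00501). The call was lost with every other scaling or background tried, where the difference was 0.20 to 0.57, and with the mean of its 7 present probes, which ranged from 0.10 to 0.66 with a mean of 0.41. Relative to the brightest act-3 probe, the log2 fold changes were 1.16 for zip-2 (limma adjusted p = 0.000938), 1.03 for irg-1 (limma adjusted p = 0.00123) and 1.27 for irg-2 (limma adjusted p = 0.00316). Relative to the mean of the act-3 probes, they were 1.41, 1.28 and 1.52. Actin genes are near-identical in sequence, and the sharing of signal between their probes was not tested. All 8 reference genes listed were higher in low MV worms with quantile normalization and 2 were called, beside 21.6% of all genes called higher. Both called genes, act-3 and act-4, are actin genes, as are act-1 and act-2 of the list, so the 8 may not be separate readings. The median of the 8 genes, 0.41, turned to -0.14 with spike-in scaling.

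Marker genes of the cell types in which zip-2 is known to act did not move in one direction. Of 9 intestine markers tested, 0 rose and 3 fell, or 3 rose and 2 fell without low MV replicate 2, and their mean log2 signal was 12.10 and 12.04 in high MV and 12.15 and 11.74 in low MV samples. Of 10 pharynx markers 4 were tested, and 3 of those rose, or 2 rose and 1 fell with scaling to the brightest act-3 probe. Their mean log2 signals were 8.91 and 9.17 in high MV and 10.39 and 10.09 in low MV samples. The pharyngeal myosin genes myo-1 and myo-2 had no present probe. Of 9 body wall muscle markers 1 rose and 5 fell, and of 10 oocyte markers 0 rose and 1 fell. Of 5 early embryo markers 1 rose and 2 fell, and of 2 sperm markers 0 were called. All these marker counts stand beside 21.6% of all genes called higher and 17.1% called lower. Some of the muscle markers called, in either direction, passed the filter on dim probes only through the group where they are high. The mean log2 signal of the muscle markers was 10.25 and 10.27 in high MV and 9.87 and 9.31 in low MV samples, and that of the oocyte markers 16.07 and 15.83 in high MV and 15.75 and 15.72 in low MV samples. The part of pharynx, muscle and germline RNA in the values of zip-2, cebp-1, irg-1 and irg-2 was not tested.

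The genes next to these 5 in RefSeq order did not all share their direction. On the sides of zip-2, ceeh-1, an epoxide hydrolase gene, differed by -0.22 (limma adjusted p = 0.241), and K02F3.9 fell by 2.07 (limma adjusted p = 0.000561), each with 2 annotated genes in between. Beside cebp-1, D1005.2 rose by 1.38 (limma adjusted p = 0.00112), and W05H7.1 differed by 0.23 (limma adjusted p = 0.206) and turned to -0.43 with scaling to act-3. Both neighbours of cebp-2 fell, cof-2 by 0.91 (limma adjusted p = 0.0022) and lpd-2 by 0.78 (limma adjusted p = 0.00246). With normexp cof-2 was at -0.44, under the fold required for a call. Beside irg-1, T24A6.7 gave 7.40 and 7.62 in high MV and 9.30 and 9.64 in low MV samples, a rise of 1.96 (limma adjusted p = 0.000878). On the other side of irg-1, the UDP-glucuronosyltransferase gene ugt-64, with 7 genes in between, fell by 0.83 (limma adjusted p = 0.00196). irg-2 was the only one of the 5 with a rise on both sides, of 1.53 for C49G7.10 (limma adjusted p = 0.00442) and of 1.41 for phat-3, a gene of pharyngeal gland cells (limma adjusted p = 0.00136). C49G7.10 gave 10.73 and 11.32 in high MV and 12.35 and 12.77 in low MV samples. Its order of samples was that of irg-2, but zip-2 and T24A6.7 had this order too. Of all genes, 42% had both low MV samples above both high MV samples.

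Likeness to each gene was measured as the Euclidean distance between profiles over the 4 arrays, each centred on its own mean, among 12513 genes well above background on all arrays. The nearest to zip-2 were C06E7.4 at 0.017, dlg-1, a scaffold gene of epithelial junctions, at 0.049, fkb-7 at 0.051, W06H8.5 at 0.052 and the cadherin gene cdh-9 at 0.059. Nearest to cebp-1 were the guidance receptor gene sax-3 at 0.025, Y38C1AB.5 at 0.025 and C04A11.2 at 0.034, and nearest to cebp-2 the neuropeptide gene nlp-40 at 0.011, sec-61.G at 0.012 and T05F1.4 at 0.013. For irg-1 they were shn-1 at 0.052, str-112 at 0.058 and phg-1 at 0.067, and for irg-2 gogo-1 at 0.047, sdz-35 at 0.075 and numr-1 at 0.084. Of these similar genes, cdh-9, str-112, phg-1 and gogo-1 passed the filter on dim probes only through low MV worms. With normexp str-112 rose by 0.53, phg-1 by 0.40 and gogo-1 by 0.42, under the fold required for a call. Within the 5 genes, zip-2 lay closest to irg-1, at 0.291, and to irg-2, at 0.307, and farther from cebp-1, at 0.873, and cebp-2, at 1.959. With 4 arrays the measure mostly reflects the difference between the groups.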

How the data were processed

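RNA of 2 low MV and 2 high MV samples was hybridized to single-colour arrays. Per the file headers, Feature Extraction 11.5.1.1 was used, and the authors deposited background-subtracted intensities, median signals and flags of each spot. They also deposited a log2 table, equal to the quantile-normalized log2 median signal within 5.0e-09. No depth applies to arrays, and 4 arrays limit the precision. Here log2 intensities of 43803 non-control spots were quantile normalized, 62 probes with an outlier flag were dropped, and spots of a probe were averaged. A probe was kept if present, by a mixture of 2 Gaussians, on both arrays of a group. Names were matched to RefSeq (22720 of 28477, and 633 kept as sequence names), and a gene was read from its brightest present probe. Probe sequences and coordinates were not used here.

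The test was limma 3.58.1 (R 4.3.3) over 12515 genes with Benjamini-Hochberg adjustment, and it was tested on simulated data. Python 3.11.15, scikit-learn 1.9.0 and matplotlib 3.10.9 were used for the mixture and figures. The members, the gene lists, the tests and the alternatives were chosen with earlier results of these data known. Named genes are the 5 followed, the other irg genes, atfs-1, gas-1, mev-1, act-3, up to 3 called genes of each list in each direction, the nearest neighbours and the most similar profiles, and myo-1, myo-2 and genes with no present probe were named besides. Alternatives covered scaling, background correction with normexp (offset 50, on the median signal), the deposited table, filters, probe choice, variance prior, thresholds, the methods' t-test, a replicate block and each array left out. Scaling to the mean of the act-3 probes, and scaling of the lists to act-3, were chosen after seeing the data. The integrative test of the methods was not run, since with 2 arrays a group its null holds the real grouping as a large share.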

Additional observations from a re-analysis of the deposited data

How the results depend on the processing

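The number of genes called higher was 2697 and that of genes called lower 2134. Genes called higher numbered 936 with spike-in scaling (and 2948 lower), 1533 with normexp, 726 with scaling to the brightest act-3 probe, 1267 with scaling to the mean of the act-3 probes, 4190 with no filter on dim probes, 4250 with a filter on spots well above background, 1240 at a 2-fold threshold and 780 by the methods' t-test after adjustment. Genes called lower numbered 3363 without scaling, 1303 with normexp, 6741 and 4852 with scaling to the brightest probe and to the mean of act-3, 889 at 2-fold and 756 by the adjusted t-test. The unadjusted t-test called 2186 higher and 1863 lower. The median of all genes was -0.39 with spike-in scaling, -0.15 without scaling, and -0.65 and -0.40 with the act-3 scalings. Relative to it, with quantile normalization and these scalings, zip-2 was at 1.59 to 1.81 and cebp-1 at 0.96 to 1.30. In the same settings cebp-2 was at -0.37 to -0.14, irg-1 at 1.68 to 1.93 and irg-2 at 1.83 to 1.92. A shift of all genes of an array cannot change these distances. With normexp they were 1.72 for zip-2, 0.23 for cebp-1, -0.05 for cebp-2, 0.8 for irg-1 and 1.66 for irg-2. The 9 member probes called became 3 with normexp, 1 of them of irg-1, and 5 with the adjusted t-test, 3 of them of irg-1. cebp-1 was not called with normexp (0.24), with scaling to the brightest act-3 probe (0.31) or to the mean (0.56), and at 2-fold (0.97). cebp-2 was called lower with scaling to the brightest act-3 probe (-0.79) but not with scaling to the mean (-0.54). irg-2 at 1.93 was not called by the adjusted t-test, unlike zip-2, cebp-1 and irg-1. gas-1 and mev-1 turned to -0.26 and -0.33 with spike-in scaling, -0.02 and -0.09 without scaling, -0.30 and -0.37 with the brightest act-3 probe and -0.05 and -0.12 with the mean. W05H7.1 turned to -0.43 and -0.18 with the act-3 scalings. The cause was not tested, beyond the shift of all genes that each scaling sets. Whichever array was left out, 2645 to 2780 genes were called higher and 1997 to 2296 lower. The deviations of same-numbered arrays from their group means had a correlation of 0.007 over 12515 genes. With 2 arrays a group this is a single contrast, so it cannot show whether same-numbered samples were collected together. With the replicate number as a block 2724 genes were called higher and 2140 lower. In that fit zip-2 had a limma adjusted p of 0.00128 and no member call changed. A block for slide could not be fitted, since each group lies on 1 slide. With 2 arrays a group, small changes such as that of cebp-2 have intervals that include 0, and the dim probes of cebp-1 and irg-1 lie close to the present threshold.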
